A study of Homo sapiens with 6 samples.

Results

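The genes described here are 10 transcription factors of luminal epithelium, the layer of secretory and lumen-facing cells in tissues such as the mammary gland. They are GATA3, FOXA1, TFAP2A, TFAP2C, SPDEF, GRHL2, ELF3, XBP1, KLF5 and EHF, taken by gene name from the 21494 genes of the deposited count table. All 10 had an entry, and all 10 were among the 16756 genes that passed the filter on low counts. The set was chosen with the results of the same comparison known, in particular that GATA3 was nearly absent from the control samples. Differences of these 10 genes between the groups are therefore given as a description, without a p-value, and a call among them is not read as a test.

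RNA-seq was performed on 6 samples of human cells, 3 carrying a control shRNA (Control sh) and 3 carrying an shRNA against DCAF1 (VprBP sh). DCAF1 encodes VprBP, a substrate receptor of a ubiquitin ligase that also phosphorylates histone H2A. The shRNAs were delivered by lentivirus and stable cells were selected with puromycin, so that both groups carry a vector, and the knockdown rests on 1 shRNA as far as the sources used here say. The labels call the cells G361, a melanoma line, and give their cell type as melanoma, but name LD611 as their source. Should the groups hold different cells, that difference would coincide with the shRNA and could not be told apart from it. Nothing in the labels says that the 3 replicates of a group were separate cultures, so p-values measure only the spread between these samples, which may be technical.

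Luminal transcription factors act in layers. GATA3 and FOXA1 can bind closed chromatin and open enhancers for other factors, among them the estrogen and androgen receptors. The AP-2 proteins TFAP2A and TFAP2C bind many of the same enhancers in breast cells. SPDEF, ELF3 and EHF are epithelial members of the ETS family, and SPDEF promotes the differentiation of secretory cells. GRHL2 maintains genes of epithelial junctions, KLF5 is linked to proliferating and basal epithelial cells, and XBP1 drives the expansion of the secretory pathway in the unfolded protein response. In melanocytes, TFAP2A is a known partner of the lineage factor MITF.

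The sequences upstream of 4 of the factors are shown because their mRNA differed most between the groups, GATA3, SPDEF and XBP1 being higher in VprBP sh and KLF5 lower. They are RefSeq sequences of GRCh38.p14, read 5′ to 3′ on the strand of the gene and ending at the base before the RefSeq start. Windows were used for 6 of the 10 genes, these 4 together with FOXA1 and ELF3. Each had a RefSeq start within 50 bases of the start of the canonical GENCODE transcript. No window was used for TFAP2A, TFAP2C, GRHL2 and EHF, and not all of them were searched by this distance. Their absence therefore does not show that they lack such a start. Bases that another annotated transcript places in an exon were left off, 4 for SPDEF and 28 for XBP1. Capitals mark matches to the AP-2 string GCCNNNGGC or to the GC box GGGCGGGG on either strand. The windows are chr10:8054438-8054687 (plus strand) for GATA3, chr6:34556334-34556579 (minus strand) for SPDEF, chr22:28800598-28800819 (minus strand) for XBP1 and chr13:73058755-73059004 (plus strand) for KLF5.
GATA3: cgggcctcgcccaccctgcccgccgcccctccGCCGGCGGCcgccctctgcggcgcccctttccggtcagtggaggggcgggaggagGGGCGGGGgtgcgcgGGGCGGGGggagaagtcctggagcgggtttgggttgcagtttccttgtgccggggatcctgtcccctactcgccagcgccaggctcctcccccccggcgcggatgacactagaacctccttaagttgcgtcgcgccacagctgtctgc
SPDEF: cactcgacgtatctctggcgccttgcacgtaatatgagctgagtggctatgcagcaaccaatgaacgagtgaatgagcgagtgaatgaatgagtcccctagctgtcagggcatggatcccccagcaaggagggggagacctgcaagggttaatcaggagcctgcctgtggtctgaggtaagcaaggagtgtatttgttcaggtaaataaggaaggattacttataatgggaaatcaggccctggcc
XBP1: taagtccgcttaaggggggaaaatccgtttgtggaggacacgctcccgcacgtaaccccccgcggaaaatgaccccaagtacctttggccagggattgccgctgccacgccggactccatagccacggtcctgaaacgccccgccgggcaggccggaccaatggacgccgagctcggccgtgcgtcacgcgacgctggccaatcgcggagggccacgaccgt
KLF5: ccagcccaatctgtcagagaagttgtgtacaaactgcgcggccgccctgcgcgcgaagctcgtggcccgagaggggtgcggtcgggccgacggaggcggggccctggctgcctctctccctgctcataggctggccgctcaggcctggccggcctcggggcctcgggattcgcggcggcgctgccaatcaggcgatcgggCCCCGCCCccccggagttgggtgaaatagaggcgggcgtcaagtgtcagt

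These windows differed in CpG content. The GATA3 sequence held 26 CpG dinucleotides in 250 bases, KLF5 held 27 in 250 and XBP1 held 27 in 222, while SPDEF held 6 in 246. The median over the 35116 promoters of the RefSeq table was 11. GATA3 and SPDEF, the factors nearly absent from Control sh, thus stood on opposite sides of that median. GATA3 carried 1 AP-2 string, which 19.8% of all promoters hold, and 2 GC boxes, and KLF5 carried 1 GC box, which 21.8% of all promoters hold. A TATA box (TATAAA) was present in ELF3 and in 10.7% of all promoters. None of the 6 windows held the GATA string AGATAA (9.2% of all promoters), the FOX string TGTTTAC (3.0%), the GRHL string AACNGGTT (1.5%), the ETS string CCGGAAG (8.5%), the KLF string CCACACCC (3.0%) or the XBP1 string CCACGTCA (0.6%). Both strands were searched, and a match is only a match of letters.

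GATA3 (chr10:8045378-8075198 on hg38, plus strand) had almost no reads in Control sh and a moderate level in VprBP sh. It had 7, 1 and 0 counts in the Control sh samples and 1580, 1334 and 1873 counts in the VprBP sh samples. Every VprBP sh sample was far above every Control sh sample. Normalized counts, which are counts scaled by the upper quartile of each sample, averaged 3.04 ± 4.36 for Control sh and 1513 ± 203 for VprBP sh (SD, n = 3 each). The 3 counts taken as the limit of detection correspond to 2.28 to 3.44 normalized counts, so that only replicate 1 of Control sh held GATA3 above that limit. The ratio of the summed counts, 4787 against 8 and scaled for the depth of the groups, was 537, with a 95% interval of 272 to 1244 that covers counting error only. The fitted log2 fold change was 9.02 (SE 0.38), and it was 11.24 without replicate 1 of Control sh, whose 7 counts make up most of the control signal. In bulk RNA, fewer cells of a type and less RNA per cell cannot be told apart, for GATA3 or for any gene below.

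FOXA1 (chr14:37589552-37596059, minus strand) was already present in Control sh and was higher in VprBP sh. Its normalized counts were 1002, 1401 and 1353 in Control sh and 5050, 5148 and 5070 in VprBP sh. The groups were well apart, and the VprBP sh samples lay close together. The log2 fold change was 2.02 (SE 0.12), from means of 1252 ± 218 and 5090 ± 52.0 (SD, n = 3 each).

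The pair of AP-2 factors differed from each other. TFAP2C (chr20:56629306-56639283, plus strand) had normalized counts of 950, 1019 and 1119 in Control sh and 2023, 2125 and 2145 in VprBP sh. These groups did not overlap, and the log2 fold change of 1.03 (SE 0.09) lay just past the 2-fold limit. It lay at or under that limit in 4 of 15 alternatives, at 0.93 with TMM factors, 0.91 with DESeq2, 0.97 without replicate 1 of Control sh and 1.00 without replicate 1 of both groups. TFAP2A (chr6:10393186-10419659, minus strand) had normalized counts of 3867, 3138 and 2942 in Control sh and 3068, 3099 and 3190 in VprBP sh. The VprBP sh values lay within the range of the Control sh values. The log2 fold change of TFAP2A was -0.09 (SE 0.11) and ranged from -0.21 to 0.13 over the alternatives, changing sign with the scaling.

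Among the ETS factors, SPDEF stood apart. SPDEF (chr6:34537802-34556333, minus strand) had 11, 14 and 26 counts in the Control sh samples and 4888, 6373 and 8711 counts in the VprBP sh samples. Its normalized counts averaged 17.4 ± 6.22 in Control sh, above the limit of detection in each sample, and 6190 ± 682 in VprBP sh (SD, n = 3 each). The ratio of the summed counts, scaled in the same way, was 351, with a 95% counting interval of 267 to 472, and the log2 fold change was 8.44 (SE 0.19). The other ETS factors were abundant in both groups and differed little. EHF (chr11:34621093-34663288, plus strand) had normalized counts of 8120, 6656 and 6462 in Control sh and 7492, 8129 and 7999 in VprBP sh, and the groups overlapped. ELF3 (chr1:202007945-202017183, plus strand) had 7681, 7671 and 7925 in Control sh and 4348, 6802 and 6830 in VprBP sh. All VprBP sh values of ELF3 were below the Control sh values, and replicate 1 was the lowest by a wide margin. The log2 fold change was 0.15 (SE 0.10) for EHF and -0.37 (SE 0.16) for ELF3, and the ELF3 value was -0.19 without replicate 1 of VprBP sh.

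XBP1 (chr22:28794555-28800597, minus strand) was the most abundant of the factors in VprBP sh. Its normalized counts were 2098, 2091 and 2152 in Control sh and 21649, 27043 and 27166 in VprBP sh. The Control sh values were nearly equal, and every VprBP sh value was far above them. The log2 fold change was 3.58 (SE 0.11), from means of 2114 ± 33.6 and 25286 ± 3150 (SD, n = 3 each). Gene counts do not separate the spliced from the unspliced XBP1 mRNA, the first of which encodes the active factor of the unfolded protein response.

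KLF5 (chr13:73054976-73077541, plus strand) was the only one of the 10 that was lower by more than 2-fold. Its normalized counts were 10171, 9666 and 9219 in Control sh and 1875, 2198 and 2111 in VprBP sh. The groups did not overlap, and the log2 fold change was -2.23 (SE 0.09). GRHL2 (chr8:101492439-101669726, plus strand) had 3024, 2916 and 2955 in Control sh and 2485, 2317 and 2309 in VprBP sh. These groups did not overlap either, although the difference was small, with a log2 fold change of -0.32 (SE 0.07).

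**Figure D1:**
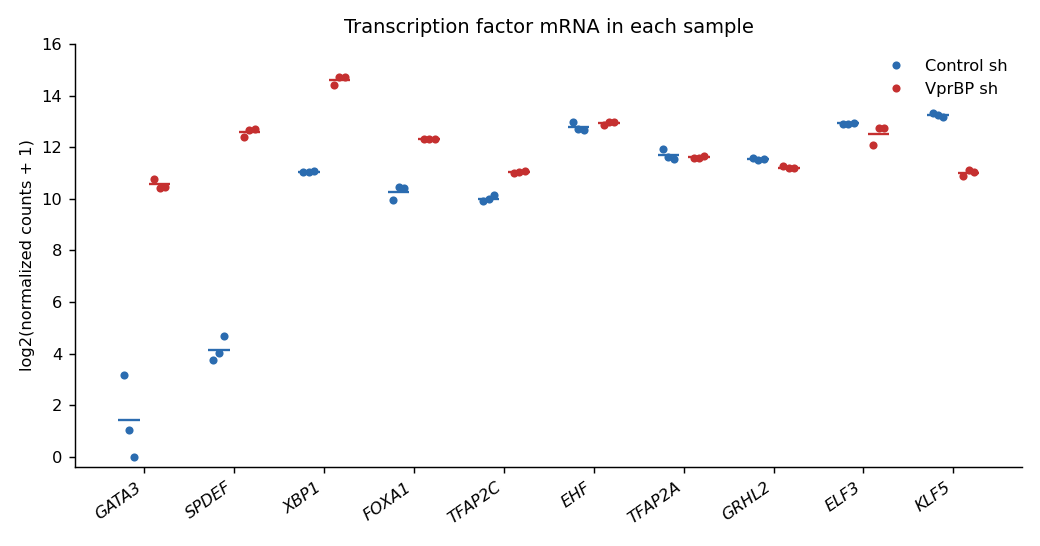
The plot of the 10 factors by sample gives log2(normalized counts + 1) on the vertical axis, with 1 point per sample, 3 for Control sh and 3 for VprBP sh of each gene, and a line at their mean. GATA3 and SPDEF lie near the bottom in Control sh and high in VprBP sh, KLF5 is lower in VprBP sh, and the groups of TFAP2A and EHF overlap.

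A gene was called when its edgeR adjusted p-value was under 0.05 and its fold change over 2. By that rule 5 of the 10 factors were called higher in VprBP sh (GATA3, FOXA1, TFAP2C, SPDEF and XBP1), against 24.5% of all genes tested. KLF5 alone was called lower, against 22.0% of all genes tested, and 4 were not called. In either direction, 46.4% of all genes tested were called. The normalized counts of the groups did not overlap for 8 of the 10 factors, and for 79.5% of all genes tested. As the factors were chosen on this comparison, nothing is read from these shares. The median log2 fold change was 0.59 over the 10 factors and 0.08 over all genes tested. It was 0.16 over the factors with at least 10 counts required in every sample, which leaves out GATA3.

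The wider comparison sets limits on these values. Total counts ran from 18195949 to 26883948 per sample, and mitochondrial genes took 1.96% to 1.99% of the Control sh counts and 4.10% to 4.48% of the VprBP sh counts. Replicate 1 stood somewhat apart in both groups, with correlations of 0.985 to 0.987 to the other replicates, which correlated at 0.990 in Control sh and 0.994 in VprBP sh (Pearson, across genes). Without replicate 1 of both groups, 4 factors were called higher and 1 lower, and GATA3 had a log2 fold change of 11.14. DCAF1, the targeted gene, had normalized counts of 789, 961 and 830 in Control sh and 753, 502 and 477 in VprBP sh, so the groups did not overlap. Its log2 fold change was -0.58 (SE 0.17, edgeR adjusted p = 0.0125), which is under 2-fold. The two-sided exact permutation p of 0.1 for DCAF1 is the smallest that 3 against 3 samples allow.

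Levels of different genes can be compared only per length, for which TPM, the share of each mRNA among all transcripts of a sample, was computed from the counts and the merged exons of each gene. In Control sh, KLF5 led with 468 ± 23.7 TPM, followed by ELF3 with 192 ± 3.03 and EHF with 190 ± 24.4, which overlapped each other. XBP1 followed with 124 ± 1.61 TPM and GRHL2 with 87.0 ± 1.51. TFAP2A had 71.7 ± 10.6, TFAP2C 60.9 ± 4.90 and FOXA1 50.4 ± 8.80 TPM, each overlapping the next. SPDEF had 1.61 ± 0.572 TPM and GATA3 0.159 ± 0.228 (SD, n = 3 each). KLF5 was thus above every other factor in each Control sh sample, and only GATA3 and SPDEF were below all others.

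The order was different in VprBP sh. XBP1 led with 1607 ± 176 TPM and SPDEF came next with 622 ± 58.9, neither overlapping another factor. EHF had 229 ± 7.23 and FOXA1 222 ± 4.51 TPM, which overlapped, and the same was true of ELF3 with 160 ± 35.9 and TFAP2C with 135 ± 2.08. KLF5 had 108 ± 7.56, GATA3 86.0 ± 13.0, GRHL2 75.5 ± 4.53 and TFAP2A 73.1 ± 0.369 TPM (SD, n = 3 each), each overlapping the next. SPDEF passed from the 9th place to the 2nd and KLF5 from the 1st to the 7th. GATA3, although its fold change was among the largest of the 10, stayed among the lower ones in TPM. The fold changes of GATA3 and SPDEF could not be ranked, since their counting intervals overlapped and GATA3 was at 8.36 on the log2 scale without replicate 3 of Control sh. Summed over the 10 factors, TPM ran from 1210 to 1292 in the Control sh samples and from 3012 to 3501 in the VprBP sh samples. The place of TFAP2A depended on the length used, since it has 8220 bases of merged exons and 3831 in its longest transcript, and with the longest transcript it moved from the 10th place to the 6th in VprBP sh.

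**Figure D2:**
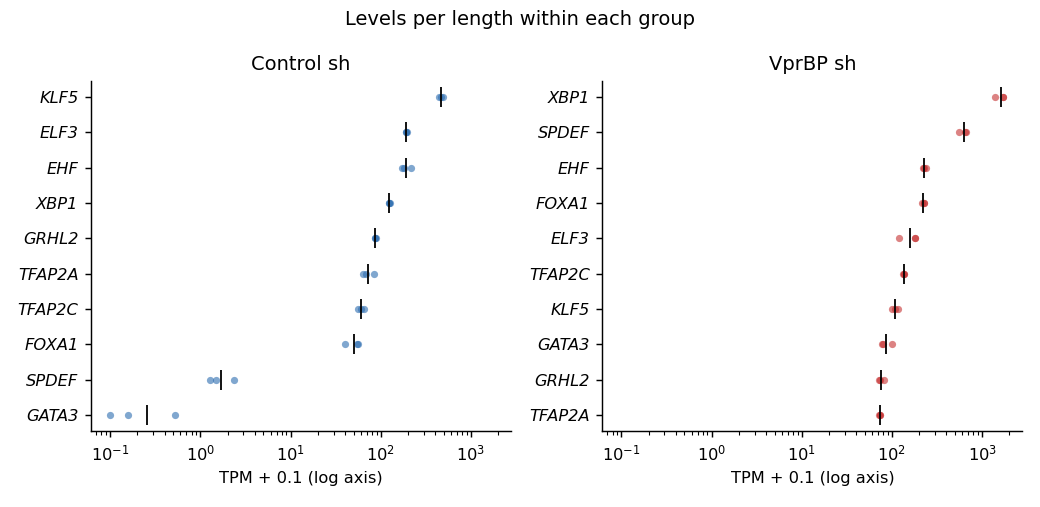
The plot of levels per length shows TPM + 0.1 on a log axis for the 10 factors in each group, ordered by their mean, with 1 point per sample and a tick at the mean. KLF5 is at 468 TPM in Control sh and 108 in VprBP sh, and XBP1 at 124 and 1607.

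Close relatives of the factors differed in both directions. Here and below, rose and fell mean called higher and called lower in VprBP sh. Over all genes tested, 24.5% were called higher and 22.0% lower, which the counts of each list are to be set against. Of 21 other members of the GATA, FOXA, AP-2, GRHL, ELF and KLF families, 17 were in the table and 14 passed the filter, of which 5 rose and 6 fell. Their median log2 fold change was -0.27, and it changed sign over the alternatives, from -0.39 to 0.33. Among these 14, GATA2 and GATA6 fell while GATA3 was higher. GATA2, a factor of blood and urogenital development, had normalized counts of 738, 663 and 673 in Control sh and 44.2, 82.3 and 85.0 in VprBP sh. GATA6, a factor of endoderm, averaged 1487 ± 45.3 and 393 ± 108 (SD, n = 3 each). The edgeR log2 fold changes were -3.27 (SE 0.21, adjusted p = 4.64e-07) for GATA2 and -1.92 (SE 0.18, adjusted p = 6.42e-06) for GATA6.

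The GRHL family showed the opposite arrangement, with GRHL2 slightly lower and its relatives higher. GRHL1 had normalized counts of 324, 202 and 198 in Control sh and 2001, 2604 and 2585 in VprBP sh. GRHL3, which takes part in barrier formation, averaged 145 ± 13.6 and 470 ± 80.1 (SD, n = 3 each). Both sets of groups were apart, with edgeR log2 fold changes of 3.32 (SE 0.20, adjusted p = 3.26e-07) for GRHL1 and 1.70 (SE 0.16, adjusted p = 7.33e-06) for GRHL3. Among the remaining relatives, TFAP2E rose (log2 fold change 2.59, SE 0.35) from 19.4 ± 12.2 to 115 ± 4.0 normalized counts. ELF2 rose as well (1.07, SE 0.10), a call that was lost with TMM factors (0.97) and with DESeq2 (0.95), while ELF1 (-0.23, SE 0.08) and ELF4 (-0.32, SE 0.09) were not called.

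KLF5 was lower, as were some other KLF factors, while others were higher. KLF6 had a log2 fold change of -1.44 (SE 0.20) and KLF7 of -1.75 (SE 0.18), and both fell. KLF2, a factor of quiescent endothelial and immune cells, rose from 23.6 ± 7.39 to 257 ± 77.6 normalized counts (log2 fold change 3.43, SE 0.30). KLF4, a factor of differentiating epithelium, averaged 320 ± 146 and 580 ± 90.6 and was not called (0.86, SE 0.27). Below 100 normalized counts, FOXA2 fell from 81.3 ± 2.34 to 0 in every VprBP sh sample. FOXA3 fell too, from 58.7 ± 3.03 to 7.63 ± 5.10 (-2.90, SE 0.41), while FOXA1 was higher. GATA4 averaged 10.4 in Control sh and was at 0 in every VprBP sh sample. TFAP2B was at 0 in every Control sh sample and averaged 10.1 in VprBP sh, and both were under the filter. FOXA2, FOXA3, GATA4 and TFAP2B are named after their values were seen.

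**Figure D3:**
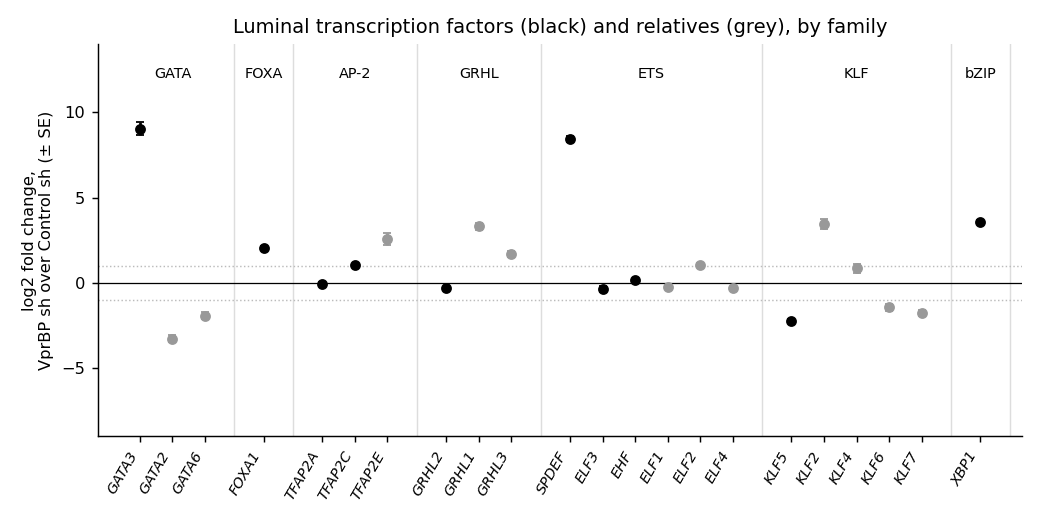
The plot of the factors and their relatives by family gives the log2 fold change of VprBP sh over Control sh with its SE, the 10 factors in black and relatives in grey, and dotted lines at a 2-fold difference. GATA3 is at 9.02 while GATA2 is at -3.27 and GATA6 at -1.92, and GRHL2 is at -0.32 while GRHL1 is at 3.32 and GRHL3 at 1.70.

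Nuclear receptors and cofactors that work with the luminal factors were mixed in direction. Of 14 listed, 11 were in the table and were tested, of which 6 rose, 1 fell and 4 were not called, with a median log2 fold change of 1.39. TRPS1, a GATA-type repressor of luminal breast cells, had 0, 1 and 0 counts with the control shRNA and 1637, 1651 and 2339 with the VprBP shRNA, at least 556.9-fold higher against the limit of detection. MYB, a factor of progenitor and luminal cells, averaged 41.7 ± 12.6 and 513 ± 49.9 normalized counts (log2 fold change 3.61, SE 0.20, edgeR adjusted p = 2.29e-07). PGR, the progesterone receptor, was the gene that fell, from 58.5, 77.5 and 82.6 normalized counts to 0 in every VprBP sh sample, at least 25.19-fold lower. ESR1, the estrogen receptor, averaged 151 ± 6.30 and 98.7 ± 9.24 and was not called (-0.61, SE 0.16). PGR and ESR1 are named after their values were seen.

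Differentiation genes of luminal cells were mostly higher. Of 22 listed, 18 were in the table and 17 were tested, of which 11 rose, 3 fell and 3 were not called, with a median log2 fold change of 1.13. The median was 1.82, 1.86 or 1.89 without replicate 1, 2 or 3 of Control sh and 1.92 without replicate 1 of VprBP sh, and it ranged from 1.01 to 1.92 over all alternatives. SCGB2A2, the secreted protein mammaglobin, was at 0 in every Control sh sample and had 6342, 4344 and 4653 normalized counts in VprBP sh, at least 1617-fold higher. MLPH, which links melanosomes and other vesicles to myosin, was also at 0 in Control sh and averaged 2344 ± 377 in VprBP sh, at least 741-fold higher. CA12, a carbonic anhydrase that is abundant in luminal breast cells, went the other way, from 2210 ± 175 to 6.13 ± 3.24 (log2 fold change -8.38, SE 0.21, edgeR adjusted p = 1.65e-09). TSPAN1, a tetraspanin of epithelia, fell too (-1.51, SE 0.09). Summed over the list, TPM ran from 5163 to 5353 in Control sh and from 9162 to 11572 in VprBP sh. With at least 10 counts required in every sample, which leaves out genes at 0 in a group, 6 genes of the list were called higher.

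Basal epithelial genes were lower almost throughout. All 20 listed genes were tested, of which 18 fell and none rose, with a median log2 fold change of -6.82. With at least 10 counts required in every sample, 12 were called lower and the median was -4.55. NGFR, a receptor of neural crest and basal cells, had 9987, 9592 and 8870 normalized counts in Control sh and 0 in every VprBP sh sample, at least 3278-fold lower. DSG3, a desmosomal cadherin, went from 2553 ± 61.3 to 0, at least 882.5-fold lower. TP63, the main factor of basal epithelium, averaged 8840 ± 1005 and 9.35 ± 0.969 (log2 fold change -9.86, SE 0.16, edgeR adjusted p = 3.24e-10). EGFR (-0.36, SE 0.09) and TRIM29 (0.01, SE 0.12) were the genes not called, and TP63, EGFR and TRIM29 are named after their values were seen. TPM summed over the basal list ran from 22023 to 22395 in Control sh and from 527 to 628 in VprBP sh. KLF5, which is linked to basal cells, was lower in VprBP sh as well, as were the 18 genes that fell.

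Junction genes, many of which are known targets of GRHL2, rose more often than they fell. Of the 22 tested, 9 rose, 1 fell and 12 were not called, with a median log2 fold change of 0.68. CLDN3, a tight junction claudin, had 19.5, 9.69 and 2.82 normalized counts in Control sh and 2444, 4034 and 3819 in VprBP sh (log2 fold change 8.38, SE 0.37, edgeR adjusted p = 4.30e-08). TJP3, a scaffold of tight junctions, rose as well (2.83, SE 0.18). OVOL1, a repressor of mesenchymal genes, fell from 221 ± 71.0 to 65.9 ± 24.0 (-1.72, SE 0.30). CDH1, which encodes E-cadherin and is named after its values were seen, averaged 10015 ± 551 and 6477 ± 815 and was not called (-0.63, SE 0.10).

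Repressors of the epithelial program changed in both directions. Of 8 listed, 6 were in the table and 5 were tested, of which 1 rose and 3 fell. SNAI2 had 2156, 1498 and 1530 normalized counts in Control sh and 0 in every VprBP sh sample, at least 597-fold lower. TWIST2 was at 0 in every Control sh sample and had 625, 423 and 461 in VprBP sh, at least 159-fold higher. SNAI2 was thus found only in Control sh and TWIST2 only in VprBP sh. TWIST1 and TCF4, named after their values were seen, were the others that fell, at least 23.14-fold and 6.947-fold. The median log2 fold change was -2.80 with genes absent from a group set at their bound. With at least 10 counts required in every sample, none of these genes was called, since those at 0 were left out.

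XBP1 was set beside the genes of the unfolded protein response, which changed in both directions. Of the 26 tested, 3 rose, 8 fell and 15 were not called, with a median log2 fold change of 0.02 that changed sign over the alternatives, from -0.18 to 0.23. Over all genes tested, 46.4% were called in either direction, and nothing is read from the counts of this list. ATF4, the factor of the integrated stress response, had 3150, 3627 and 3518 normalized counts in Control sh and 15194, 14627 and 14791 in VprBP sh. HERPUD1, a component of the degradation of misfolded proteins, averaged 586 ± 26.5 and 1884 ± 30.3 (SD, n = 3 each). The edgeR log2 fold changes were 2.12 (SE 0.08, adjusted p = 2.40e-08) for ATF4 and 1.68 (SE 0.08, adjusted p = 1.02e-07) for HERPUD1. HSP90B1 and MANF went the other way. HSP90B1, a chaperone of the endoplasmic reticulum, had 27123, 27878 and 27690 in Control sh and 9370, 7184 and 7572 in VprBP sh. MANF, a secreted factor induced by stress of that compartment, averaged 1157 ± 155 and 417 ± 79.9. The log2 fold changes were -1.78 (SE 0.11, adjusted p = 3.67e-07) for HSP90B1 and -1.47 (SE 0.16, adjusted p = 1.71e-05) for MANF. ERN1, whose product splices the XBP1 mRNA and which is named after its values were seen, averaged 507 ± 64.0 and 424 ± 38.6 and was not called (-0.26, SE 0.13).

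**Figure D4:**
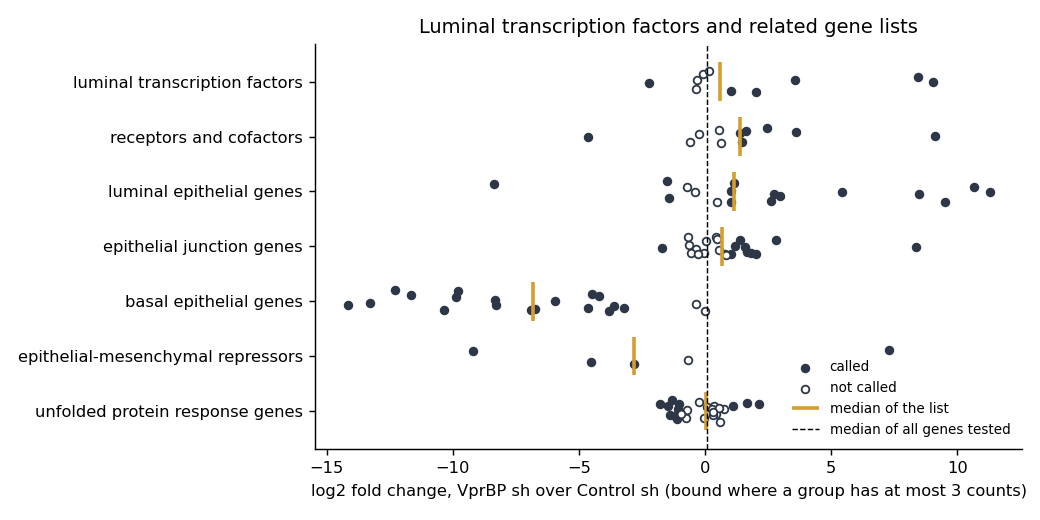
The plot of the factors and the related lists gives the log2 fold change of each tested gene, with genes that have at most 3 counts in every sample of a group set at their bound, filled points for called genes and open points for the others. The vertical bar is the median of each list, at 0.59 for the 10 factors, 1.13 for luminal genes, -6.82 for basal genes and 0.02 for the unfolded protein response, and the dashed line is the median of all genes tested, 0.08.

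Markers of cell types that use some of these factors were measured beside them. The cells carry the label melanoma, but of 10 melanocyte markers TYR, DCT, SOX10, S100B, PAX3 and SLC45A2 had no entry among the genes analysed. The other 4 summed to between 5.56 and 6.79 TPM in Control sh and between 7.33 and 9.26 TPM in VprBP sh, and neither of the 2 tested was called. Of these, MITF averaged 170 ± 13.8 and 234 ± 30.3 normalized counts (log2 fold change 0.46, SE 0.15, edgeR adjusted p = 0.0185). The defining genes of the labelled cell type thus had no entry or were low in both groups. KRT8, a keratin of simple epithelium named after its values were seen, was abundant in both and rose from 18813 ± 1915 to 38584 ± 3652 (1.04, SE 0.11). This call was lost with TMM factors (0.94), with DESeq2 (0.92) and without replicate 1 of Control sh (0.95) or replicate 2 or 3 of VprBP sh (0.99 each). Other keratins of the luminal list, also named after their values were seen, were mixed. KRT19 was called higher (1.01, SE 0.19), a call lost with TMM factors (0.91) and DESeq2 (0.89), among other alternatives. KRT18 (0.48, SE 0.09) and KRT7 (-0.70, SE 0.12) were not called.

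Urothelium also uses GATA3, FOXA1 and KLF5. Of 8 urothelial markers, 6 were in the table and 5 were tested, of which 1 rose and 3 fell, with a median log2 fold change of -2.25 (0.85 with at least 10 counts required in every sample). UPK1B, a uroplakin, had 574, 690 and 665 normalized counts in Control sh and 0 in every VprBP sh sample, at least 222-fold lower. KRT13, a keratin of stratified epithelium, fell from 4303 ± 1009 to 6.12 ± 3.50 (-9.47, SE 0.31). PPARG, a nuclear receptor that takes part in urothelial differentiation, rose from 274 ± 66.0 to 719 ± 24.1 (1.39, SE 0.16). It is also counted above among the receptors and cofactors that rose. TPM summed over the urothelial markers ran from 305 to 419 in Control sh and from 68.0 to 81.7 in VprBP sh. KRT13 made up most of that sum in Control sh, at a mean of 262 TPM. The uroplakins UPK2 and UPK3B are named after their values were seen. UPK2 fell from 209 ± 8.53 to 43.1 ± 13.5 normalized counts (-2.25, SE 0.23). UPK3B had a mean of 27.3 TPM in Control sh and 53.4 in VprBP sh and was not called (0.84, SE 0.14). UPK3A and KRT20 had no entry, and UPK1A was under the filter. The markers thus did not all share 1 direction.

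T cells, trophoblast and fibroblasts were measured in the same way. Of 7 T cell markers, CD3D, CD3E, CD3G, CD2, PTPRC and CD4 had no entry among the genes analysed, and TRAC was at 1.57 to 2.92 TPM in Control sh and 0 in VprBP sh. Of 7 trophoblast markers, 2 were in the table, with sums between 0.232 and 0.929 TPM in Control sh and between 0.185 and 0.350 TPM in VprBP sh. The defining markers of both types thus had no entry or were at or near 0 where GATA3 was high. Of 6 fibroblast markers, 4 were tested and 3 fell, and their TPM summed to between 16.4 and 16.9 in Control sh and between 9.87 and 12.8 in VprBP sh. COL1A1 made up most of that sum, at a mean of 13.5 TPM in Control sh, and was not called (-0.33, SE 0.13). The 3 that fell, COL1A2, LUM and PDGFRB, were low in Control sh, at 41.1, 27.5 and 23.2 normalized counts. These 4 genes are named after their values were seen. The part of the marker lists and of the mitochondrial share in the differences of the 10 factors was not tested.

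Of the genes around GATA3 on chromosome 10, the 3 nearest coding genes were not called, and the entries farther away differed in both directions or not at all. TAF3, a subunit of a general transcription factor and the nearest gene upstream at 28.7 kb, had 456, 452 and 452 counts with the control shRNA and 400, 337 and 462 with the VprBP shRNA. The log2 fold change was -0.33 (SE 0.14, edgeR adjusted p = 0.049) for TAF3. It was -0.40 (SE 0.09, adjusted p = 0.00288) for ATP5F1C and -0.39 (SE 0.15, adjusted p = 0.0407) for KIN. These genes were thus lower, but by less than 2-fold, and none was called. SFMBT2, a Polycomb protein gene 633.9 kb upstream, had 0 counts in every Control sh sample and 245, 208 and 297 in VprBP sh, at least 74.86-fold higher. Downstream, the nearest entry was the pseudogene KRT8P37 at 438.5 kb, with 0 to 3 counts in every sample. The noncoding gene ENSG00000223808, 894.9 kb downstream, had 0 counts in every Control sh sample and 41, 23 and 46 in VprBP sh. SFTA1P, a noncoding gene 2709.2 kb downstream, had 252, 510 and 584 counts with the control shRNA and 184, 213 and 334 with the VprBP shRNA, and was called lower (-1.03, SE 0.23). That call was lost in 7 alternatives, among them library size alone (-0.83) and leaving out replicate 2 or 3 of Control sh (-0.90 each) or replicate 1 of VprBP sh (-0.97). CELF2, which encodes an RNA-binding protein and lies 2723.2 kb downstream, had 0, 2 and 3 counts with the control shRNA and 17, 16 and 36 with the VprBP shRNA, at least 6.596-fold higher. Entries beyond the nearest on each side of GATA3 are named after their values were seen.

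**Figure D5:**
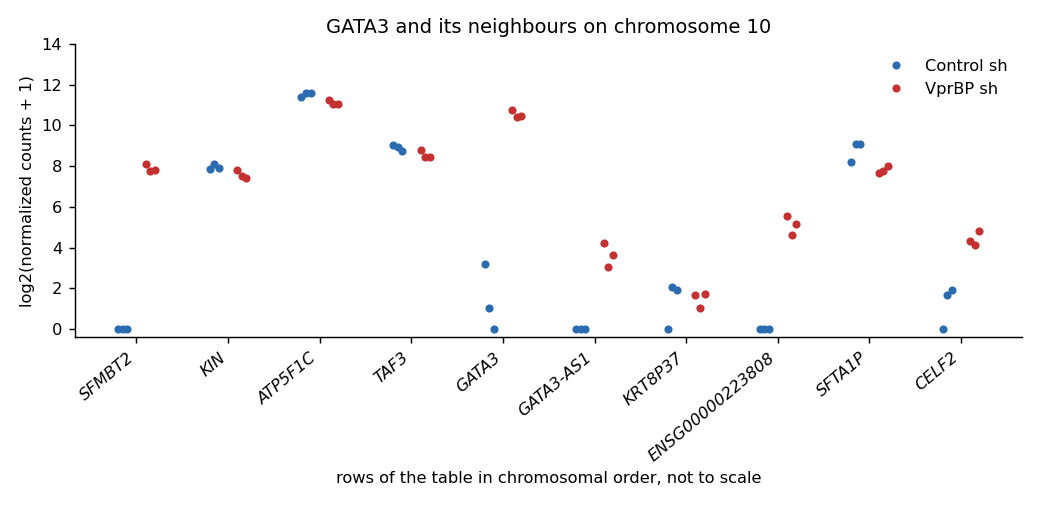
The plot of GATA3 and its neighbours gives log2(normalized counts + 1) for each sample, with genes in their order along chromosome 10 and not to scale. TAF3, ATP5F1C and KIN lie on average slightly lower in VprBP sh, by less than 2-fold, while GATA3, GATA3-AS1 and SFMBT2 have points above 0 mainly in VprBP sh.

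Some of the 10 genes share bases with another gene, and the sources used here do not say whether reads were counted by strand. GATA3-AS1, on the opposite strand of GATA3, had 0 counts in every Control sh sample and 16, 7 and 15 in VprBP sh, which was under the filter. TTC6, which overlaps FOXA1 on the opposite strand, had 19, 22 and 25 counts with the control shRNA and 119, 96 and 133 with the VprBP shRNA, and rose (log2 fold change 2.25, SE 0.23, edgeR adjusted p = 1.34e-05). These counts were small beside those of GATA3 and FOXA1. TFAP2A-AS2 rose (1.62, SE 0.37) from 15.8 ± 5.96 to 49.7 ± 13.5 normalized counts, whereas TFAP2A-AS1 was not called (0.57, SE 0.30). ELF3-AS1 was not called (-0.01, SE 0.19), nor was ENSG00000249007 inside ELF3 (0.61, SE 0.46). ENSG00000254024 overlaps GRHL2 and was under the filter. TFAP2C, SPDEF, XBP1, KLF5 and EHF overlap no other entry of the table.

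The genes whose pattern was most like that of GATA3 were found by the Euclidean distance of log2(normalized counts + 1) over the 6 samples. They were SBK1, a kinase gene, at 1.50, KCNK2, a potassium channel gene, at 1.84, ROBO1, a guidance receptor gene, at 1.86, NUPR1, a stress-induced chromatin protein gene, at 1.99 and MCF2L, an exchange factor gene, at 2.27. SBK1 had 4.59, 0 and 0 normalized counts in Control sh and 990, 1403 and 1400 in VprBP sh. ROBO1 had 8.03, 0 and 1.88 in Control sh and 1530, 1369 and 1393 in VprBP sh. Like GATA3, these 5 genes were at or near 0 in Control sh and above 900 normalized counts in every VprBP sh sample. The distance was computed on the same 6 samples from which GATA3 was chosen, and none of the other 9 factors was among the 5.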

How the data were processed

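RNA-seq was analysed for 3 Control sh and 3 VprBP sh samples, assigned by the sample titles. Reads had been aligned to hg38 with STAR, and the authors deposited estimated counts per gene from Partek Flow, one column for each sample and without the upper quartile scaling of their methods. The methods name a strand-specific KAPA kit and the labels a SMARTER kit. Of the values, 59.4% were whole numbers, and every gene had a sum of at least 10. The tests had been planned for counts, so the estimated counts were rounded to whole numbers first.

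The comparison used the quasi-likelihood test of edgeR 4.0.16 in R 4.3.3, with upper quartile factors (quantile 0.75), the edgeR filter on low counts (minimum 10), all 6 samples and Benjamini-Hochberg adjustment over 16756 genes. The call needed an adjusted p-value under 0.05 together with more than 2-fold. SE is the log2 fold change over the square root of F. Where all samples of a group held 3 counts or fewer, the fold is a bound against 3 counts per sample. TPM used the merged exons of GENCODE 44, which matched 21460 of 21494 genes. Counting intervals are exact. The script was run on simulated data with far fewer changed genes than here, all changed by the same fold. That run checks the code and not the calls made on these data. Python 3.11.15, numpy 2.4.6, pandas 2.3.3 and scipy 1.17.1 were used.

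The 10 factors, the gene lists and the tests were chosen with earlier results of these data known. Named genes were the 10 factors, DCAF1, relatives that averaged at least 100 normalized counts in 1 group and the 5 genes closest to GATA3. From each list came up to 2 increases and 2 decreases among called genes above the same level, the largest by fitted fold change. Entries next to or overlapping the factors were named too. Genes outside this rule are marked as named after their values were seen. For genes at 0 in a group, the fitted value exceeds the bound. AZGP1 of the luminal list (log2 fold change 11.31) and KRT14 of the basal list (-14.18) lay past the bounds of the genes named there. Both are named after their values were seen. Alternatives were TMM factors, library size alone, DESeq2 1.42.0, limma-voom (limma 3.58.1), no filter, a filter of 10 counts in each of the samples, a replicate block, each sample left out, replicates 2 and 3 summed and, chosen after seeing the data, both samples of replicate 1 left out.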

Additional observations from a re-analysis of the deposited data

How the results depend on the processing

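The direction of GATA3, FOXA1, TFAP2C, SPDEF, XBP1 and KLF5 was the same in every alternative run, and all but TFAP2C were called in each one they could be fitted in. GATA3 could not be fitted with at least 10 counts in every sample. The alternatives reuse the samples on which the factors were chosen, so they describe only how the calls depend on the processing. Called genes numbered 7778 in all, and 4690 (2694 higher and 1996 lower) with at least 10 counts in every sample, which leaves fewer genes tested. That filter leaves out genes at 0 in a group. It called 6 in place of 11 luminal genes higher and 12 in place of 18 basal genes lower. It also called 1 in place of 3 urothelial and 0 in place of 3 fibroblast markers lower. Over all genes, another scaling moved the median from 0.08 to 0.29 on the log2 scale with library size alone and to -0.01 with TMM factors, and 4899 of 8147 called genes were then higher with library size alone. For DCAF1, library size alone gave -0.37 (edgeR adjusted p = 0.0851) and the sum of replicates 2 and 3 gave -0.46 (adjusted p = 0.0839). Deviations of samples with the same replicate number from their group means correlated at -0.158, -0.0365 and -0.122 over 13320 genes. These values cannot show whether such samples were handled together, which is not stated. The replicate block gave 7686 called genes and -0.60 for DCAF1 (edgeR adjusted p = 0.0274). The cause of these changes was not tested. With at most 7 counts in a Control sh sample, the level of GATA3 there and the size of its fold change are limited by depth.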
